A study of Drosophila melanogaster with 8 samples.

Results

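CG8519, CG32373, CG34165, CG34227 and CG43109 are 5 protein-coding genes of Drosophila melanogaster that carried no name beyond their annotation numbers in the gene tables used here. They were chosen by measured values. Each rose by more than 1.7 on the log2 scale when c-di-GMP was transfected into cells given scrambled dsRNA, while the 2 samples given DmSTING dsRNA and c-di-GMP disagreed with each other. They are 5 of 11009 genes measured by probe sets that name 1 gene, and each had 1 probe set (1634879_at, 1630163_at, 1640675_at, 1634525_at and 1638489_at, in that order). Their values were set beside those of Mtk, which encodes the antimicrobial peptide metchnikowin (probe set 1627613_at).

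RNA came from S2 cells, a fly line of embryonic origin with properties of blood cells, and was hybridised to 8 arrays in 4 groups of 2 samples. All cells first received dsRNA with a lipid reagent, either a scrambled sequence or one against DmSTING, which codes for the STING protein of flies, a sensor of cyclic dinucleotides. After 72 h they were transfected with c-di-GMP, a signalling molecule of bacteria, or mock transfected with the reagent alone, and RNA was taken 24 h later. The groups were scrambled mock, scrambled c-di-GMP, DmSTING RNAi mock and DmSTING RNAi c-di-GMP, and the study asked what DmSTING does to the c-di-GMP response. Groups follow the sample titles; the genotype field contradicts the title in 4 samples. The labels do not say whether the replicates came from separate cultures; p-values therefore cover variation among these samples alone, and that may be technical.

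Antimicrobial peptide genes of flies are switched on by NF-kappaB factors, chiefly Relish (Rel) at the end of the IMD pathway and Dif and Dorsal at the end of the Toll pathway. Metchnikowin answers to both pathways. In flies Sting has been linked to Relish through the kinase IKKbeta, and genes such as Nazo act downstream of it against viruses. The IMD pathway also induces its own brakes, among them PGRP-LB, an amidase that degrades peptidoglycan, and pirk, which blocks signalling at the receptor.

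Values are log2 units relative to the median of each probe set over the 8 samples, so a value near 0 says nothing of how abundant a transcript is, and levels of different genes cannot be compared. For the same reason the presence of blood cell markers could not be checked, and only their changes could be tested. Of 30 listed markers of 3 blood cell types (lamellocytes, plasmatocytes, crystal cells) and of muscle, neurons and fat body, 24 were measured. With c-di-GMP under scrambled dsRNA 5 of the 24 fell and none rose, namely the collagen genes vkg (-0.74) and Col4a1 (-0.61), the phagocytic receptor gene NimC1 (-0.64), the lamellocyte oxidase gene PPO3 (-0.57) and the integrin gene mys (-0.35); their part in the rises below was not tested. Of all genes 7.93% fell and 4.14% rose there. The fat body marker gene apolpp, not called with all 8 samples, changed by 0.34, with its scrambled c-di-GMP samples apart at 0.017 and 0.44. Whether it counted as risen depended on keeping replicate 1 of these. The count of fallen markers was 3 with quantile normalization or without either DmSTING RNAi mock sample, 2 without scrambled mock replicate 1, and 0 without scrambled mock replicate 2 or with the 4 scrambled samples alone. None of the 24 was called by limma in the knockdown arm, where 7.44% of all genes were, or between the mock groups; with quantile normalization 1, NimC1, fell in the knockdown arm. Expression of Sting was lower in the 4 samples given DmSTING dsRNA (from -0.84 to -0.46) than in the 4 given the scrambled sequence (from 0.46 to 0.83). Between replicates, the SD over genes of the difference was 0.166 in scrambled mock, 0.233 in scrambled c-di-GMP, 0.119 in DmSTING RNAi mock and 0.196 in DmSTING RNAi c-di-GMP. The DmSTING RNAi c-di-GMP samples differed by more than 1 log2 unit in 30 genes with replicate 2 higher (0.273% of all genes) and in 1 gene with replicate 1 higher (0.00908%). In scrambled c-di-GMP replicate 2 was higher by more than 1 in 16 genes and replicate 1 in 4. The number of arrays limits the precision of every value below.

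All 5 genes were low in the mock samples of both arms, high in both scrambled c-di-GMP samples, and split in the DmSTING RNAi c-di-GMP samples, of which replicate 1 stayed among the mock values and replicate 2 rose part of the way. Mtk showed the same order. The rises with scrambled dsRNA lay between 1.77 and 2.65 on the log2 scale (3.42-fold to 6.29-fold if the logarithm has base 2, which the sources do not state). With quantile normalization they lay between 1.16 and 1.74, and 1 of the 5, CG8519, was above 1.7. These rises and the split chose the genes, so they are given as a description and were not tested.

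CG8519 had the highest rise of all 11009 genes in the scrambled arm. With scrambled dsRNA its log2 values were -0.49 and -0.0017 after mock transfection and 2.31 and 2.51 after c-di-GMP. Under DmSTING knockdown it was at 0.0017 and -0.30 after mock transfection and -0.25 and 1.61 after c-di-GMP. Both scrambled c-di-GMP samples were the highest, replicate 2 of DmSTING RNAi c-di-GMP came next, and replicate 1 of that group lay within the range of the 4 mock samples. The rise in the scrambled arm was 2.65, or 6.29-fold. In the knockdown arm, replicate 2 stood 1.76 above the mock mean of that arm (3.38-fold) and replicate 1 stood at -0.10.

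CG32373 was at -0.29 and 0.015 after mock transfection of scrambled cells and 2.10 and 2.28 after c-di-GMP. Under DmSTING knockdown it was at -0.093 and -0.015 after mock transfection and -0.23 and 1.47 after c-di-GMP. The 3 highest samples were those of CG8519, in the same order. It rose by 2.33 with scrambled dsRNA (5.03-fold). Replicate 2 of the treated knockdown samples stood 1.52 above its mock mean and replicate 1 at -0.17.

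CG34165 was at -0.51 and -0.016 after mock transfection of scrambled cells and 1.43 and 1.86 after c-di-GMP. With DmSTING dsRNA the values were -0.18 and 0.016 after mock transfection and -0.16 and 1.14 after c-di-GMP. Its scrambled c-di-GMP samples differed by 0.42 and its scrambled mock samples by 0.49, against a rise of 1.91 (3.75-fold). Replicate 2 of the treated knockdown samples stood at 1.23 over its mock mean and replicate 1 at -0.078.

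CG34227 was at -0.044 and -0.14 after mock transfection of scrambled cells and 1.45 and 1.92 after c-di-GMP. Under DmSTING knockdown it was at 0.032 and -0.032 after mock transfection and -0.035 and 1.07 after c-di-GMP. Of the 5 genes it had the tightest mock samples and the smallest gap between the treated knockdown samples, 1.10. Its rise was 1.77 (3.42-fold), and over the knockdown mock mean replicate 2 stood at 1.07 and replicate 1 at -0.035.

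CG43109 was at -0.31 and 0.081 after mock transfection of scrambled cells and 1.73 and 1.59 after c-di-GMP. With DmSTING dsRNA the values were -0.095 and -0.081 after mock transfection and -0.28 and 1.36 after c-di-GMP. Its rise was 1.77 (3.42-fold), the lowest of the 5. Replicate 2 of the treated knockdown samples came closest here to the scrambled c-di-GMP mean, at 0.30 below it. For the other members that distance lay between 0.50 and 0.80.

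Mtk was at -0.0090 and -0.22 after mock transfection of scrambled cells and 2.37 and 2.24 after c-di-GMP. Under DmSTING knockdown it was at 0.0090 and -0.22 after mock transfection and -0.098 and 1.5 after c-di-GMP. It rose by 2.42 with scrambled dsRNA (5.34-fold). Replicate 2 of the treated knockdown samples stood at 1.61 over its mock mean and replicate 1 at 0.0074. Expressed as a share of the rise in the scrambled arm, both on the log2 scale, replicate 2 reached 66.6% for Mtk, and 66.3%, 65.2%, 64.3%, 60.2% and 81.5% for CG8519, CG32373, CG34165, CG34227 and CG43109. Sting itself was at -0.84 in replicate 1 and -0.75 in replicate 2, a difference of 0.092.

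**Figure D1:**
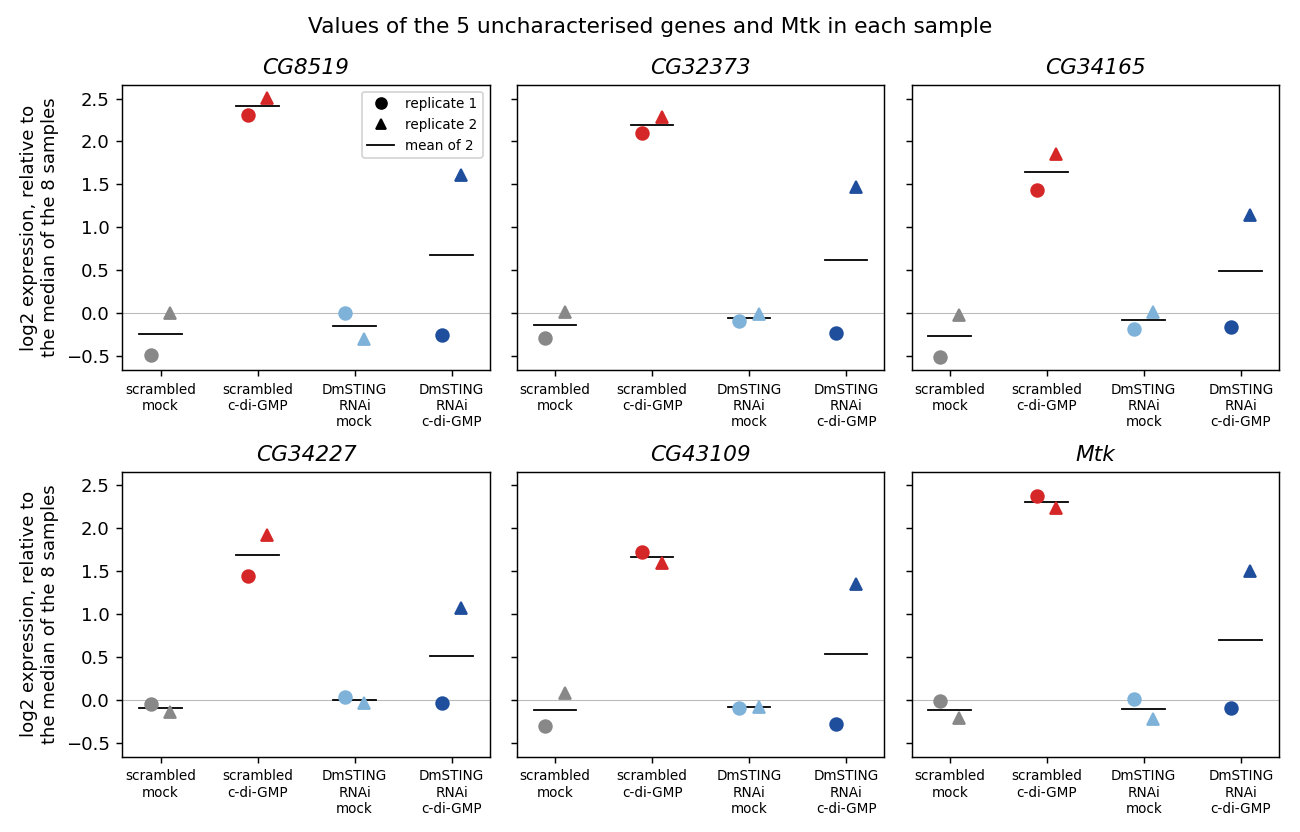
Log2 values (vertical axis, relative to the median of the 8 samples) of the 5 uncharacterised genes and Mtk by group (horizontal axis); circles are replicate 1, triangles replicate 2 and lines the mean of 2. In each of the 6 panels both scrambled c-di-GMP samples are highest, DmSTING RNAi c-di-GMP replicate 2 is next, and replicate 1 lies among the mock samples.

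The same order of samples (both scrambled c-di-GMP samples above DmSTING RNAi c-di-GMP replicate 2, that sample above the 4 mock samples, and replicate 1 not above the highest of them) was met by 128 genes, 1.16% of all. It was met by 5 of the 5 members, whose choice fixed most of it. Within the scrambled c-di-GMP group, which was not chosen for agreement, the replicates of the members differed by -0.14 to 0.47 (replicate 2 minus replicate 1), against an SD over all genes of 0.233. In scrambled mock, replicate 1 lay below replicate 2 by 0.31 to 0.49 in CG8519, CG32373, CG34165 and CG43109. CG34227 and Mtk went the other way, with replicate 2 lower by 0.095 and 0.21.

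The cutoff of 1.7 was passed by 12 genes (0.109% of all). Besides the 5 members these were PGRP-LB at 2.62, Mtk at 2.42, the antibacterial peptide genes Def at 1.91 and CecB at 1.83, pirk at 1.83, CG15282 at 1.80 and the transferrin gene Tsf1 at 1.71. CG15282 has no name either and passes by these values, although it was not among the chosen symbols. The lowest 3 inside the cutoff were Tsf1 at 1.71 and CG43109 and CG34227 at 1.77; the highest 3 outside were CG7296 at 1.697, the trehalose transporter gene Tret1-1 at 1.67 and CG12520 at 1.34. In all 12 genes over the cutoff, DmSTING RNAi c-di-GMP replicate 2 exceeded replicate 1 by more than 1 log2 unit.

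Tret1-1, just outside the cutoff, did not show the split. It stood at 0.76 and 0.93 in scrambled c-di-GMP and at 0.69 and 0.72 in DmSTING RNAi c-di-GMP, against -0.75 and -0.89 in scrambled mock and -0.69 and -0.84 in DmSTING RNAi mock. Its c-di-GMP response with scrambled dsRNA was 1.67, the value that placed it beside the cutoff, so it is given with no test. With DmSTING dsRNA the response was 1.47 (SE 0.09, n = 2 per group, limma adjusted p = 0.00211). In DmSTING RNAi c-di-GMP replicate 1, where the members stayed among the mock values, Tret1-1 stood at 0.69, against 0.72 in replicate 2. CG12520, also outside the cutoff, stood at 0.29 and 0.48 in DmSTING RNAi c-di-GMP and at -0.29 and -0.41 in DmSTING RNAi mock. CG7296, the nearest gene below the cutoff, did split, at -0.44 and 1.32 in DmSTING RNAi c-di-GMP. These are single genes, and the cause of the split was not tested. Of the 30 genes with a change above 1 in the scrambled arm, 20 differed by more than 1 between the treated knockdown samples, replicate 2 being higher.

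**Figure D2:**
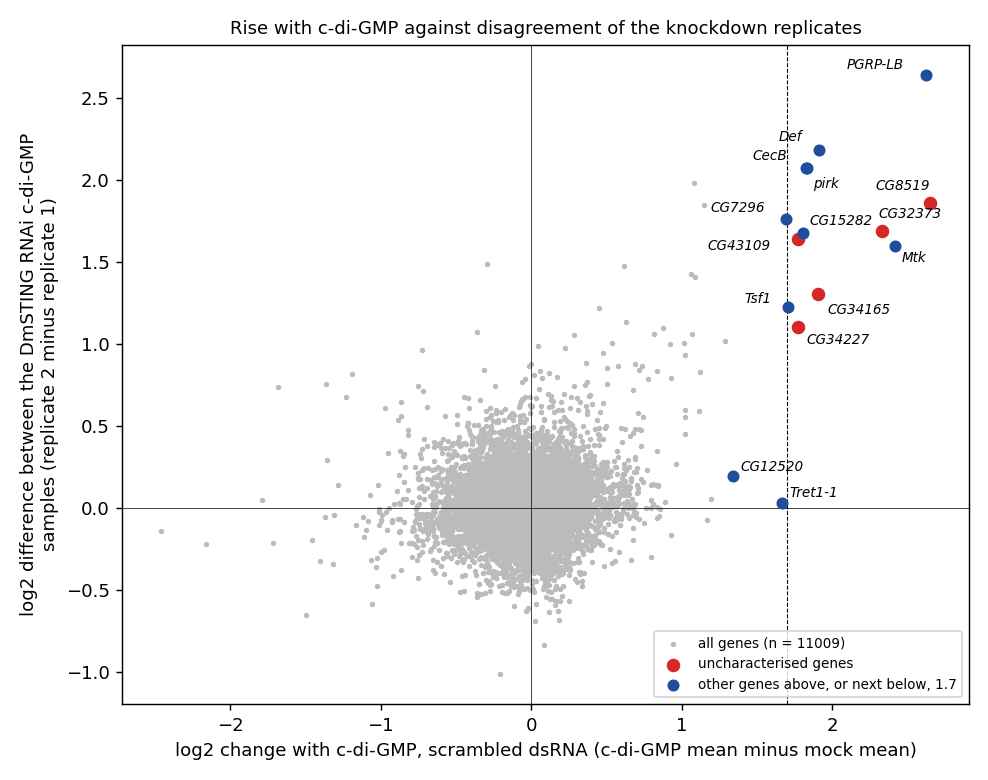
Each point is a gene; the horizontal axis is the log2 change with c-di-GMP under scrambled dsRNA and the vertical axis the log2 difference between the DmSTING RNAi c-di-GMP samples (replicate 2 minus replicate 1). The 5 members (red) lie right of the dashed line at 1.7 with gaps of 1.10 to 1.86. PGRP-LB, Mtk, Def, CecB, pirk, CG15282 and Tsf1 also lie right of it, with gaps of 1.23 (Tsf1) to 2.64 (PGRP-LB). Tret1-1 lies just left of the line with a gap of 0.034.

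Under mock transfection, DmSTING RNAi against scrambled, fitted with limma over all 11009 genes, called 1 gene (0.00908%), Sting itself, at -1.29 (SE 0.07, n = 2 per group, adjusted p = 0.0032); 355 genes had an unadjusted p under 0.05. The scrambled mock samples are also the low side of the rise that chose the members, and a low value there favours being chosen, so the differences of the members are given as a description with no test. CG8519 differed by 0.095, CG32373 by 0.085, CG34165 by 0.18, CG34227 by 0.091 and CG43109 by 0.025, each higher with DmSTING dsRNA, and Mtk by 0.0070. In the members the 2 scrambled mock samples lay 0.095 to 0.49 apart.

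In the knockdown arm the mean response of the members to c-di-GMP was 0.83 for CG8519, 0.67 for CG32373, 0.57 for CG34165, 0.52 for CG34227 and 0.62 for CG43109, and 0.81 for Mtk. No treated sample lay near these means, so each describes neither replicate. Without replicate 1 of DmSTING RNAi c-di-GMP the responses were 1.07 to 1.76, and without replicate 2 they were -0.20 to -0.035.

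The other antimicrobial peptide genes were split between the treated knockdown samples too, with replicate 1 further down than in the members. Of 16 listed antimicrobial peptide genes 8 were measured, Mtk among them. The defence gene lists here and below were drawn up with results of these samples known, so their counts and medians are descriptive. In the scrambled arm, where 12.1% of all genes were called (4.14% higher), 2 of the 8 rose: Mtk, and the antibacterial peptide gene Listericin at 1.29 (SE 0.28, n = 2 per group, limma adjusted p = 0.0274). DptB at 0.31, edin at 0.82, AttD at 1.07, Drs at 1.08, CecB at 1.83 and Def at 1.91 (adjusted p = 0.0808) were not past the threshold. The median of the 8 was 1.19, against -0.04 for all genes. Without either DmSTING RNAi c-di-GMP sample, which alters the spread but not these changes, all 8 were called. The count was 0 without either scrambled mock sample, and 1, Mtk, with quantile normalization or without any 1 of the scrambled c-di-GMP or DmSTING RNAi mock samples. The share of all genes called also changed on leaving out a sample, so 12.1% is not the background of those counts. In the knockdown arm, with 7.44% of all genes called, 0 of the 8 were by limma, at a median of 0.15 against -0.02. Leaving out DmSTING RNAi c-di-GMP replicate 1 gave a median of 0.80 and leaving out replicate 2 gave -0.33. Each rests on 1 treated sample, so no calls are given.

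In DmSTING RNAi c-di-GMP replicate 1 the 7 antimicrobial peptide genes other than Mtk lay below the mock mean of their arm, by values from -1.34 for Drs and -1.05 for Def to -0.21 for AttD. The members lay between -0.20 and -0.035 in that sample, each above all 7. The closest pair was CG43109 at -0.196 and AttD at -0.212. Near the cutoff and outside that list, CG7296 at -0.36, CG15282 at -0.28 and Tsf1 at -0.23 lay lower than any member. Tret1-1 at 1.46 and CG12520 at 0.64 lay higher. The median of all genes was -0.021, and the share of them below the members was not counted. Of the IMD pathway genes, the amidase gene PGRP-SB1 at -1.01, the receptor-level inhibitor PGRP-LF at -0.87, Rel at -0.78, PGRP-LB at -0.71 and pirk at -0.38, picked after their values were seen, also lay lower than any member. In replicate 2 the same 5 stood at 0.84, 0.11, 0.11, 1.93 and 1.69, and the members at 1.07 to 1.76. Other listed IMD genes were lower than any member in replicate 1 too. They were dnr1 at -1.45, Diap2 at -0.64, IKKbeta at -0.28, PGRP-SC2 at -0.27, Tab2 at -0.23, and key and imd at -0.21. These genes stayed below the mock mean in replicate 2, from -1.51 for dnr1 to -0.097 for PGRP-SC2. The remaining measured IMD genes did not lie below every member in replicate 1. They were PGRP-LA at -0.17, PGRP-LE at -0.14, Dredd at -0.13, casp at -0.018 and Fadd at 0.0016. These are single samples, with no test.

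**Figure D3:**
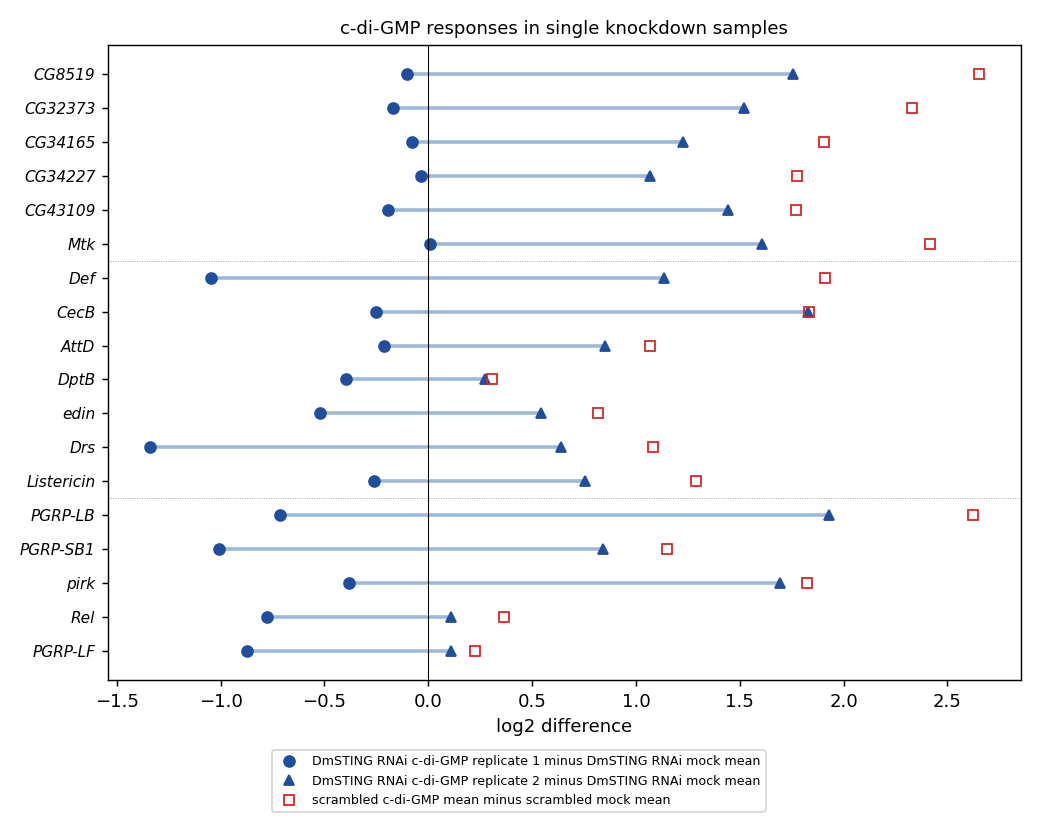
Log2 differences (horizontal axis) for the members and Mtk (top), other antimicrobial peptide genes (middle) and 5 IMD pathway genes picked after their values were seen (bottom). Blue circles and triangles are DmSTING RNAi c-di-GMP replicates 1 and 2 minus the DmSTING RNAi mock mean, and red squares the scrambled c-di-GMP mean minus the scrambled mock mean. Circles of the members lie from -0.20 to -0.035 and those of the 7 other antimicrobial peptide genes from -1.34 to -0.21.

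Of 20 listed components and regulators of the IMD pathway 17 were measured, and 3 fell in the scrambled arm with none rising (median -0.08), against 7.93% of all genes that fell there. They were dnr1, a brake on the caspase Dredd, at -1.37 (SE 0.09, adjusted p = 0.00219), Diap2, a ubiquitin ligase, at -0.38, and IKKbeta at -0.28. PGRP-LB at 2.62 (SE 0.70, adjusted p = 0.0528) and pirk at 1.83 (adjusted p = 0.0791) missed the threshold. In the knockdown arm, where 3.27% of all genes rose and 4.17% fell, dnr1, Diap2 and IKKbeta were again the 3 of 17 that fell. None of the 17 was called in that arm without either DmSTING RNAi mock sample. Leaving out either DmSTING RNAi c-di-GMP sample leaves 1 treated sample in that arm, so changes are given without calls. Without replicate 1, PGRP-LB, PGRP-SB1, pirk, PGRP-LF, Rel and dnr1 changed by 1.93, 0.84, 1.69, 0.11, 0.11 and -1.51. Without replicate 2 the same genes changed by -0.71, -1.01, -0.38, -0.87, -0.78 and -1.45. Leaving out any 1 mock sample or either DmSTING RNAi c-di-GMP sample altered which of the 17 were called in the scrambled arm. Leaving out a DmSTING RNAi c-di-GMP sample did not alter the changes in that arm. The share of all genes called moved in those fits too, so no counts are read from them. When the 4 scrambled samples were fitted alone, without the spread of the treated knockdown samples, 3 of the 17 rose, namely PGRP-LB, PGRP-SB1 and pirk, as did 6 of the 8 antimicrobial peptide genes; 141 genes in all were then called.

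In the scrambled arm, of the 4 measured genes in the list of Sting and Sting-regulated genes, Nazo rose by 1.02 (adjusted p = 0.0174) and Sting fell by 0.31 (adjusted p = 0.0367), and Srg1 at -0.17 and Srg2 at -0.22 were not called; of all genes 4.14% rose and 7.93% fell. Sting was not called without any 1 of the 4 mock samples, without scrambled c-di-GMP replicate 2, or with the 4 scrambled samples alone. Nazo differed from the members in DmSTING RNAi c-di-GMP replicate 1, where it stood 0.38 above its mock mean. In replicate 2 it stood 0.98 above that mean, a gap of 0.60 in the same direction as in the members. Of 10 measured genes of other secreted infection-induced proteins, 1 rose, Tsf1, against the same 4.14%; the median was 0.12. BomS4 at 0.80 and IM33 at 1.06 did not pass. With the replicate block 2 of the 10 were called higher, BomS4 and Tsf1. Without scrambled c-di-GMP replicate 2 BomS4 and Tsf1 were called higher and SPE lower, and without either DmSTING RNAi c-di-GMP sample IM33 and Tsf1 were called. Neither Nazo nor Tsf1 was called without either scrambled mock sample, and Tsf1 was also not called with quantile normalization or without scrambled c-di-GMP replicate 1.

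The difference of the c-di-GMP responses between the arms was called by limma for 0 of 11009 genes (0%), with 540 at an unadjusted p under 0.05. Without DmSTING RNAi c-di-GMP replicate 2, which leaves 1 sample in that group, 12 genes were called, all lower in the knockdown arm. The lone sample was assumed to vary like the other groups, and the sample left out is the one that made the pair disagree, so nothing is read from this count for the members. The rule used both arms, and no test is given for them.

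Of the 5 members, 3 are neighbours of genes of antibacterial defence in the gene order of RefSeq, a feature that the rule did not use. CG43109 overlaps DptB, a diptericin gene, and DptA lies on the far side of DptB. CG32373 spans PGRP-SD, a secreted peptidoglycan recognition protein gene, along with 9 other genes. Listericin lies 4 positions from CG34227. Of 13962 protein-coding genes in that table, 402 (2.88%) had a gene of the 4 defence lists within 5 positions, against 3 of the 5 members; the lists were drawn up with results of these samples known, and defence genes lie in clusters, so this is given as a description.

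DptB was at 0.30 and 0.32 in scrambled c-di-GMP and at -0.035 and 0.035 in scrambled mock, a change of 0.31 (SE 0.19, n = 2 per group, limma adjusted p = 0.333) against the 1.77 of CG43109. No probe sequences were used here, so whether the probe set of CG43109 could also bind the transcript of DptB was not tested. On its other side sano rose by 0.69 (SE 0.12, adjusted p = 0.0162). Of the 10 genes that overlap CG32373, 6 were measured. Snmp2 changed most, by 0.68 (SE 0.25, adjusted p = 0.13), with its scrambled c-di-GMP samples apart at 1.05 and 0.18. The other 5 changed by -0.06 (Ank2, an ankyrin gene) to 0.23 (CG7492); PGRP-SD and DptA were not analysed here.

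CG34165 had the neighbour most like it. CG15282, next to it in gene order, stood at -0.56 and -0.04 after mock transfection of scrambled cells and 1.14 and 1.86 after c-di-GMP. In the knockdown arm it was at 0.04 and -0.12 after mock transfection and -0.33 and 1.36 after c-di-GMP. Both genes had the lower of their scrambled mock and scrambled c-di-GMP values in replicate 1, and both split in the treated knockdown samples. The change of CG15282 was 1.80, above the cutoff that chose the members, so it is given with no test. CG42685, on the other side of CG34165, changed by 0.07 (adjusted p = 0.798), and SP1173, next to CG8519, by 0.17 (adjusted p = 0.271). Over all members, 23 of the 50 genes within 5 positions were measured. Their changes ran from -0.32 to 1.80 with a median of 0.11, and 2 of them, CG15282 and Listericin, changed by more than 1.

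**Figure D4:**
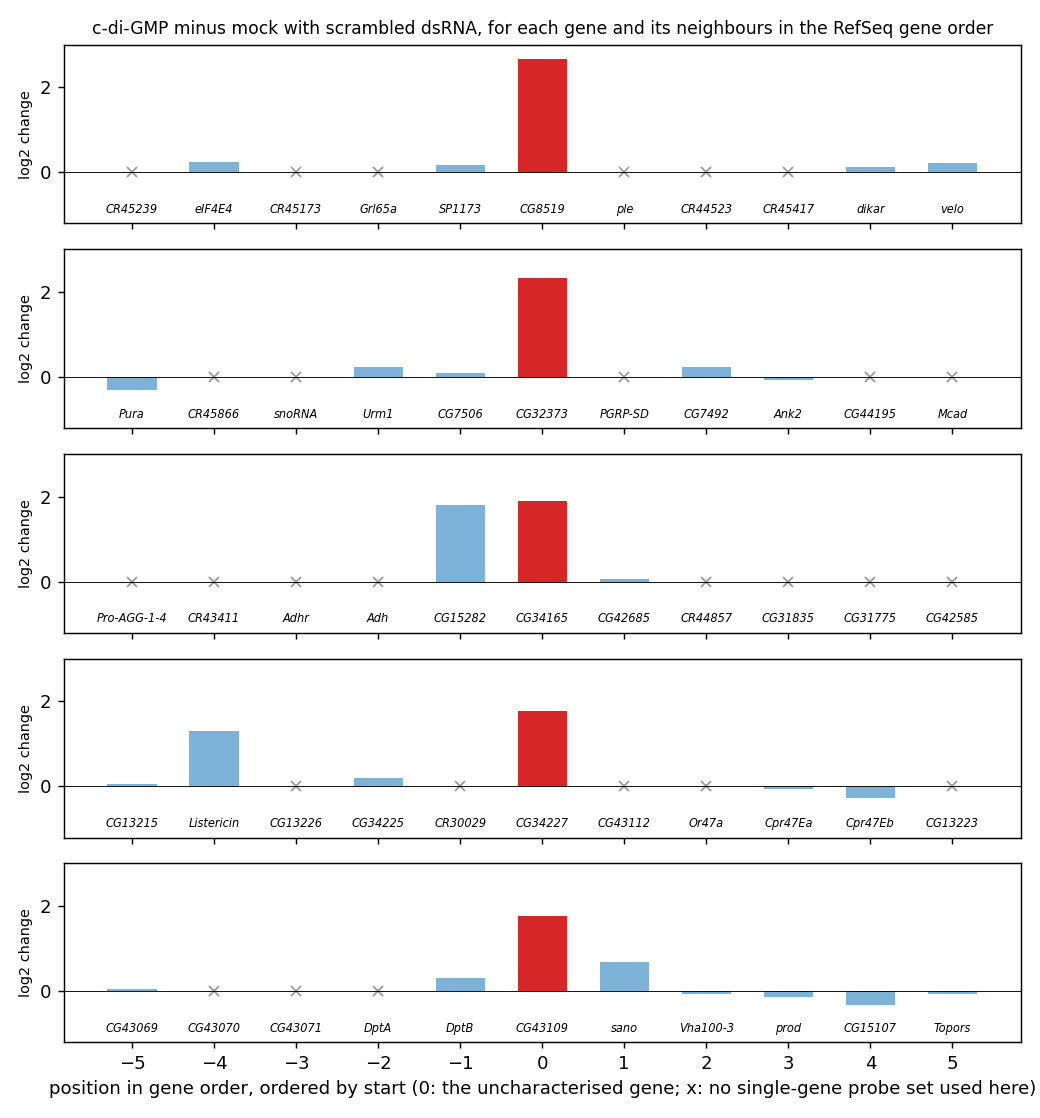
Log2 change with c-di-GMP under scrambled dsRNA (vertical axis) for each member (red bar, position 0) and the genes up to 5 positions away in RefSeq gene order (blue bars); crosses mark genes with no single-gene probe set used here. CG15282 at 1.80 and Listericin at 1.29 are the 2 tall blue bars.

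Likeness of profiles was measured as the mean absolute difference of log2 values over the 8 samples, a measure that also depends on the size of the response. The rule used these samples, so that nearness of the members to Mtk was largely fixed by their choice and is a description. The 5 genes nearest to Mtk were CG32373 at 0.16, CG8519 at 0.17, PGRP-LB at 0.24, CG34227 at 0.26 and pirk at 0.27, against a median of 0.86 over all genes. CG43109 came 7th at 0.31 and CG34165 10th at 0.36. By Pearson correlation over the 8 samples among 243 genes that ranged over at least 1 log2 unit, the nearest were Tsf1, CG32373, CG8519, AttD and Listericin, with r from 0.983 to 0.987; the samples form a high and a low cluster, so these values describe little beyond which samples were high.

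Between members the mean difference ran from 0.14 to 0.39. CG8519 and CG32373 differed by 0.15 on average and by at most 0.28 in any sample. CG34165 and CG34227 differed by 0.14, with the largest gap, 0.47, in scrambled mock replicate 1. CG43109 stood at 0.17 from both CG32373 and CG34165. The widest pair was CG8519 and CG34227 at 0.39. Outside the members, the gene nearest to CG34165 was its neighbour CG15282 at 0.14, the gene nearest to CG34227 was CG7296 at 0.13, and the gene nearest to CG43109 was Tsf1 at 0.14.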

How the data were processed

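Biotin-labelled total RNA of 8 S2 samples was measured on Affymetrix 3' IVT arrays, per the labels' protocols. The authors deposited log2 expression values for 16718 probe sets; each probe set had a median within 1e-06 of 0 over the 8 samples. Summarization, scaling between arrays, filters, software and the base of the logarithm are unstated in these sources; base 2 was taken, and higher was read as more transcript. A platform annotation gave 12339 probe sets 1 symbol, 367 several and 3888 none, and 124 were controls. Probe sets of a gene were averaged (920 of 11009 genes had more than 1). Symbols of the 5 members and Mtk matched a RefSeq gene table by Entrez ID. As its assembly is not stated for the arrays, it served for names and gene order, with no coordinates. Gene sequences were not used here.

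All 11009 genes were fitted with limma 3.58.1 in R 4.3.3 (lmFit, eBayes, 4 group means, 4 residual degrees of freedom), tested on simulated data first, with Benjamini-Hochberg adjustment and calls at an adjusted p under 0.05. Errors are SE with n = 2 per group. The replicate number was not used as a block: correlations of same-numbered deviations between groups ran from 0.00926 to 0.289, and the labels give no pairing. The members and gene lists were chosen with earlier results of these data known. Named genes were the members, Mtk, Sting, the 5 genes nearest to Mtk and 3 nearest to each member, 3 on each side of the cutoff, gene-order neighbours and listed defence genes. Cell type marker lists were tested for changes in the same fit. Alternatives were quantile normalization, probe sets tested separately or by widest range, the compared samples alone, a replicate block, and omission of each sample.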

Additional observations from a re-analysis of the deposited data

How the results depend on the processing

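With 2 arrays per group and centred values, signal over background could not be judged. The rises of the 5 members in the scrambled arm kept their direction in all alternatives run. Quantile normalization lowered them most, to 1.74 for CG8519, 1.51 for CG32373, 1.31 for CG34165, 1.18 for CG34227, 1.16 for CG43109 and 1.53 for Mtk, so that 4 of the 5 members and Mtk were no longer above 1.7; 2 genes were, CG8519 and Tret1-1. The cause was not tested. Omitting a sample moved the rise of CG8519 between 2.41 and 2.89.

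Counts of called genes moved more. In the scrambled arm 1329 genes became 141 with the 4 compared samples alone (fewer samples) and between 221 and 1385 with 1 sample left out; 34.3% of calls were higher, against 42.4% on omitting replicate 1 and 28% on omitting replicate 2 of scrambled c-di-GMP. In the knockdown arm 819 became 1294 with quantile normalization and between 0 and 1026 with 1 sample left out, with 55.0% higher instead of 44.0% without DmSTING RNAi c-di-GMP replicate 1. The difference between arms gave 0 to 12 calls on leaving out a sample. Sting under mock, 1 call, was lost (0 calls) with quantile normalization and without any 1 of the 4 mock samples (0 to 1 calls). With the replicate block the counts were 1385, 785, 0 and 1, and none of these counts moved by over 1.5 times.

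Small differences under mock changed sign without 1 mock sample: CG8519 ranged from -0.15 to 0.34, CG32373 from -0.068 to 0.24, CG34165 from -0.067 to 0.43, CG43109 from -0.17 to 0.22 and Mtk from -0.11 to 0.12. Responses in the knockdown arm ranged from -0.10 to 1.76, -0.17 to 1.52, -0.078 to 1.23, -0.035 to 1.07 and -0.20 to 1.44 for CG8519, CG32373, CG34165, CG34227 and CG43109, below 0 without DmSTING RNAi c-di-GMP replicate 2. Counts of listed defence genes and cell type markers under these settings were added after seeing the data and stand beside the lists. Promoter motifs on both strands or 1 strand, planned as an alternative, were not run because gene sequences were not used here.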
